A study of Mus musculus with 6 samples.

Results

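The HOX genes described here were 38 of the 39 annotated mouse HOX genes, chosen by name and not by any measured value, against 21938 protein-coding genes in all. They lie in 4 clusters, HOXA on chromosome 6, HOXB on chromosome 11, HOXC on chromosome 15 and HOXD on chromosome 2, with 10, 10, 9 and 9 members. Chromatin accessibility was read by ATAC-seq, in which the Tn5 transposase inserts sequencing adapters into open DNA. The 6 libraries came from primary oviductal muscle cells of mice aged 8 to 12 weeks on day 2 of pregnancy, with 50000 cells in each library. The control group, labelled WT, and the Pbrm1 cKO group held 3 libraries each. Per the study's methods, Cre was expressed from the progesterone receptor gene (PR-IRES-cre) in Pbrm1 fl/fl mice, and the controls of the study were Pbrm1 fl/fl littermates. Deletion was therefore limited to cells that express or had expressed the progesterone receptor. Per the labels, the cells had been plated in culture dishes for hours before use. PBRM1 is a bromodomain subunit of the PBAF chromatin-remodelling complex. Whether the libraries of a group came from separate mice was not given in the sources used here, so the spread between them may be technical.

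HOX proteins are homeodomain transcription factors that give cells along the body axis their position. Within a cluster the genes stand in the order in which they are used, with low paralog numbers at the 3′ end, active early and anteriorly, and high numbers at the 5′ end, active late and posteriorly. In the female tract the 5′ genes mark successive segments of the Müllerian duct: Hoxa9 the oviduct, Hoxa10 the uterus, Hoxa11 the uterus and cervix, and Hoxa13 the upper vagina. HOX proteins bind DNA together with TALE homeodomain cofactors of the PBX and MEIS families, and Polycomb and Trithorax proteins keep the clusters closed or open.

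The files held peak lists, not reads. A merged region is the union of overlapping peaks from the reproducible list of each genotype, and 66679 were formed in all. A HOX region is a merged region within the body of a member or 5 kb around it, and is named after the member with the nearest start of a protein-coding transcript and numbered along the chromosome. In each library the merged regions were ranked by the best −log10 p of the library's own peaks over them, so rank 1 is the strongest. The rank score is log2 of 66679 divided by the rank, so a score of 1 marks the middle of the list. A difference between groups is Pbrm1 cKO minus WT on this log2 scale. Because ranks are relative to the other regions of a library, a shift common to all regions is not visible.

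The sequences of 5 regions and 3 promoters are shown first, since the results return to them. Hoxa3 region 1, Hoxb8 region 1 and Hoxc8 region 5 had the highest scores of the HOXA, HOXB and HOXC clusters. Hoxa7 region 1 and Hoxc13 region 2 had the smallest p among regions lower and higher in Pbrm1 cKO. The promoters of Hoxa10, Hoxa11 and Hoxa13 stand where the HOX regions of the HOXA cluster ended. Regions are on the plus strand of GRCm38.p6, at most 300 bases from the centre and free of annotated UTR; promoters are the 250 bases before the RefSeq start, on the gene's minus strand. Capitals mark matches, on either strand and merged where they overlap. The letters are TGANTCA (a loose form of the AP-1 site of FOS and JUN proteins), TGATNNAT (a joint HOX and PBX site) and TTTATNG (a site of posterior HOX proteins). Also marked are AGGNGGC (part of the CTCF site), CCAAT and GGGCGG (the GC box of SP factors). The AP-1 site has C or G at the N, so TGATTCA and TGAATCA match the loose form only.
Hoxa3 region 1, chr6:52185208-52185507: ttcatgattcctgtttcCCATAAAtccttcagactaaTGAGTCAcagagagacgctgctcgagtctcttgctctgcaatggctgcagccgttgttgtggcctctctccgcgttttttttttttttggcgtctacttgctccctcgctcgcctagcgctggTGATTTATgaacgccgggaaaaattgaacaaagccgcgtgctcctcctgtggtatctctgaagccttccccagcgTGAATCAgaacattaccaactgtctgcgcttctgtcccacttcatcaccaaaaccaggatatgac
Hoxb8 region 1, chr11:96278858-96279076: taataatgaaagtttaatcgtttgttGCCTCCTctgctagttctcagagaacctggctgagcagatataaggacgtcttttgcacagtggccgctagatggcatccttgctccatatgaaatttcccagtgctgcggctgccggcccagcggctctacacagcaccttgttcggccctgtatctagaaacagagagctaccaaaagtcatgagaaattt
Hoxc8 region 5, chr15:102999592-102999891: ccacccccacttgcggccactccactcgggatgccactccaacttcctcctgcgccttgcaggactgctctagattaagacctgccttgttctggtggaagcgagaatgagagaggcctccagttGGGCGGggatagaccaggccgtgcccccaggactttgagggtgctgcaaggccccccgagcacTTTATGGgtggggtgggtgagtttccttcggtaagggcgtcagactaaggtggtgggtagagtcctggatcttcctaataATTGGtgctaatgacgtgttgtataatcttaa
Hoxa7 region 1, chr6:52217506-52217687: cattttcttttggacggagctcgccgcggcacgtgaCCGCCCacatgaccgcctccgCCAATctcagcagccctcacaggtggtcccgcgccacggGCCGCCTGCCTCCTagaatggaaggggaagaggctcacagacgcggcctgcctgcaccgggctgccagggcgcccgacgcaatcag
Hoxc13 region 2, chr15:102926259-102926529: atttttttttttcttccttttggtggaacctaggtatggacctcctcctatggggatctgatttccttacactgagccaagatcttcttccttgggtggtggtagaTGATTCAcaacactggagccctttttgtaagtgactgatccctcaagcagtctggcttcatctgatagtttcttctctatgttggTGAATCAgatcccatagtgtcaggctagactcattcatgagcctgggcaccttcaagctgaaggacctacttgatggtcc
Hoxa10 promoter, chr6:52240855-52241104: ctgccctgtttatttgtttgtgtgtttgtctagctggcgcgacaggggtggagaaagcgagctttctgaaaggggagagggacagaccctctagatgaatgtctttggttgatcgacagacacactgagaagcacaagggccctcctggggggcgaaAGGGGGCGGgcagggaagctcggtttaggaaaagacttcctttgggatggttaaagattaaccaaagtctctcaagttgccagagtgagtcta
Hoxa11 promoter, chr6:52245811-52246060: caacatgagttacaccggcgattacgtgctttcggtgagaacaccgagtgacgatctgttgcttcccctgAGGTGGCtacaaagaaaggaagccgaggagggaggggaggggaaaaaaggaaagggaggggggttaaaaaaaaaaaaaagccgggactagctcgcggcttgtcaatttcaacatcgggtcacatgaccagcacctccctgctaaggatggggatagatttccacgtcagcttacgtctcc
Hoxa13 promoter, chr6:52260881-52261130: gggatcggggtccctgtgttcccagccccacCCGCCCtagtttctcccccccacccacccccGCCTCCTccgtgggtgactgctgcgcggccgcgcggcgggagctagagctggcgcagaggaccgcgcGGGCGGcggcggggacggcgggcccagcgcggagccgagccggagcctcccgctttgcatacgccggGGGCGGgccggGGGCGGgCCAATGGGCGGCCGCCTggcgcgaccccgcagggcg

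These sequences differed in base composition and in the sites they held. Hoxa3 region 1 held 2 matches to the loose AP-1 letters, TGAGTCA and TGAATCA, 1 to the HOX and PBX site and 1 to the posterior HOX site. Hoxc13 region 2 held 2 matches to the loose AP-1 letters, TGATTCA and TGAATCA, neither with C or G at the centre. It held not 1 CpG in 271 bases, whereas the printed part of Hoxa7 region 1 held 18 CpG in 182 bases. GC content was 51.6% in the Hoxa10 promoter, 52% in the Hoxa11 promoter and 80% in the Hoxa13 promoter, which held 35 CpG. A match describes letters in a window and does not show that a factor binds there.

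The HOX clusters were densely accessible, but their regions were of modest strength, with a highest mean score of 3.00 against 15.5 over all regions. In all, 34 of 38 members (89.5%) had at least 1 region in their window, against 74.7% of all protein-coding genes. A region can count for several neighbouring members: the sole region in the Hoxa11 window was Hoxa10 region 2. The windows covered 445 kb and held 66 distinct regions, or 14.8 per 100 kb. The density over protein-coding genes no longer than the longest HOX gene (50.0 kb) was 5.88 per 100 kb, and over all protein-coding genes 3.92. HOX regions were short, with a median of 339.5 bp against 481 bp over all merged regions. Their median rank score was 0.815 against 0.962, and 29 of 66 stood above the overall median.

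The leading region of a member is the region of highest mean score in its window. Over the 34 members the median leading score was 1.67, against 3.13 over protein-coding genes with a region, with quartiles of 1.89 and 4.41. Windows of neighbours overlap, and 45 of the 66 regions lay in more than 1 window, so some members share a leading region. No member had a leading region among the best 6667 ranks, 10% of the list, in all 6 libraries. Among the 66, 30 regions lay within 1 kb of the start of a protein-coding transcript of a member, with a median score of 1.02, against 2.27 for the 17214 merged regions at protein-coding starts. A further 17 lay in introns, with a median of 0.825, and 11 in exons, with 0.480.

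**Figure D1:**
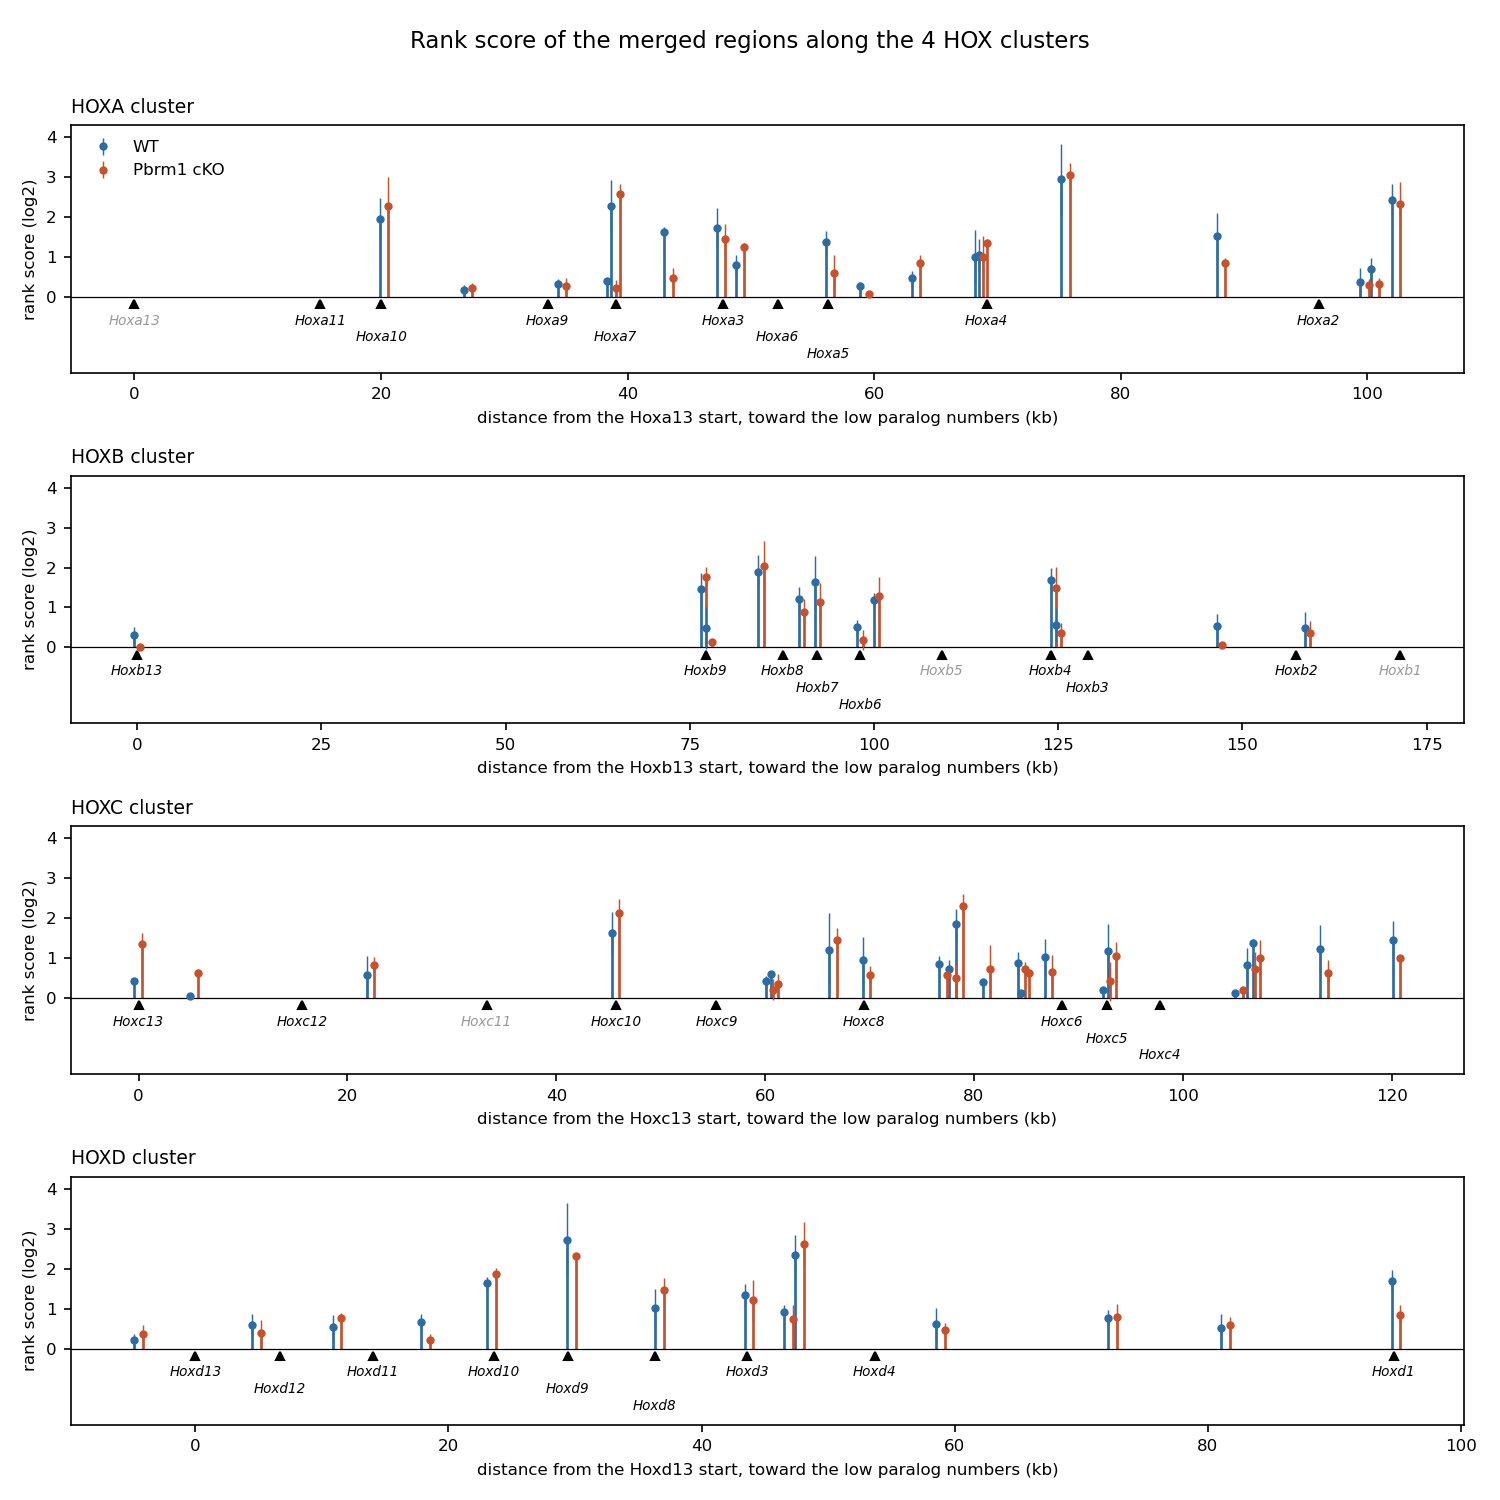
Rank score (log2, vertical) of each HOX region against its distance in kb from the start of the cluster's highest-numbered member (horizontal), for WT (blue) and Pbrm1 cKO (orange, drawn slightly apart); points are means of 3 libraries, bars the SD, and triangles the outermost start of a protein-coding transcript of each member. Members in grey had no region in their window, and the HOXA regions end at the Hoxa10 start.

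The clusters were not alike in density. The HOXC cluster held 22 regions (18.3 per 100 kb), HOXA 18 (16.9), HOXD 14 (13.7) and HOXB 12 (10.3). Paralog groups 5 to 8 had the densest windows, at 21.8 regions per 100 kb, against 15.1 in groups 1 to 4 and 12.5 in groups 9 to 13. Some annotated gene bodies, however, run across members of other groups. The Hoxc5 window held all 14 regions of the HOXC windows of groups 5 to 8, among them regions named after Hoxc9 and Hoxc10. The Hoxa3 window likewise held regions named after Hoxa5 and Hoxa7. These densities therefore describe overlapping windows and do not separate the paralog groups. The range was widest inside the HOXA cluster, from 29.9 per 100 kb in its groups 5 to 8 to 10.9 in its groups 9 to 13. Within the HOXB cluster, groups 1 to 4 held 4 regions, or 6.87 per 100 kb.

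Each cluster had 1 region that led it. Hoxa3 encodes a factor needed for the thymus and parathyroid. Hoxa3 region 1, an intronic region of 525 bp, ranked 10076, 4446 and 14375 in the WT libraries and 7293.5, 7067 and 10227.5 in the Pbrm1 cKO libraries. Its mean score of 3.00 was the highest of all 66, the groups overlapped, and the difference was 0.10 (SE 0.42, adjusted p = 0.942 by limma). In the HOXD cluster, Hoxd9 region 1, over the start of a gene used in the lumbar spinal cord and limb, ranked 19201.5, 9642 and 5476 in WT and 13987.5, 13476.5 and 12604 in Pbrm1 cKO. Its WT libraries were the more scattered, with an SD of 0.906 in score against 0.0761. The difference was −0.41 (SE 0.41, adjusted p = 0.675, limma).

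Hoxc8 region 5, an intronic region between the coding starts of Hoxc8 and Hoxc6, led the HOXC cluster, whose middle genes pattern the thoracic skeleton. It ranked 24530, 18169 and 14342 in WT and 10577, 14755 and 15505 in Pbrm1 cKO, and the groups overlapped (difference 0.47, SE 0.34, adjusted p = 0.539, limma). Hoxb8 region 1 lies between genes, 2829 bp from the Hoxb8 start, a gene known for its use in blood cell progenitors. Its ranks were 15581.5, 14825.5 and 24749.5 in WT and 25890.5, 15443 and 10735 in Pbrm1 cKO, so the WT values fell inside the range of the Pbrm1 cKO values. The difference was 0.14 (SE 0.37, adjusted p = 0.901, limma).

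**Figure D2:**
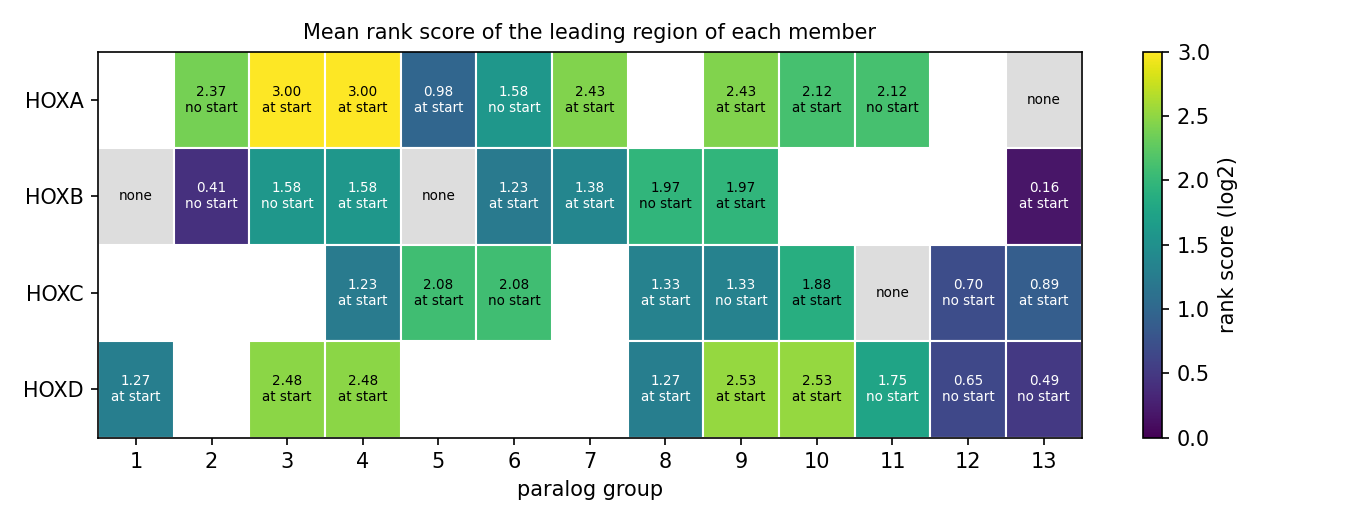
Mean rank score over 6 libraries (log2, color) of the leading region of each member, by cluster (rows) and paralog group (columns); each cell gives the score and whether a reproducible region lay within 1 kb of a start of the gene. Grey cells had no region, blank cells hold no analysed member, and Hoxa3 and Hoxa4 share the highest value of 3.00.

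The 4 members with no reproducible region were Hoxa13, Hoxb1, Hoxb5 and Hoxc11. Hoxb1 acts in the hindbrain and Hoxb5 in the gut and its nerves. The relaxed list of each library also keeps weak peaks, and all 4 had some, except that Hoxb1 had none in Pbrm1 cKO library 2. Windows held 4 to 6 relaxed peaks in each library at Hoxb5, 2 to 8 at Hoxa13, 2 to 7 at Hoxc11 and 0 to 2 at Hoxb1. The strongest of these summits carried 15 to 24 sequencing tags at Hoxb5, 8 to 21 at Hoxa13 and 5 to 16 at Hoxc11, and 6 to 15 at Hoxb1 in the other 5 libraries. Over the HOX regions the median was 27 tags, with a range of 6 to 93.

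Any region at a start also lies in the member's window, so starts cannot outnumber windows. A reproducible region lay within 1 kb of a start in 22 of 38 members (57.9%), against 61.5% of protein-coding genes. Relaxed peaks were present there in all 6 libraries for 27 members. No library had a peak at the starts of Hoxa2, Hoxb3, Hoxb8 and Hoxc12. These 4 members, which lie in 3 clusters, had regions elsewhere in their windows.

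Along the 5′ genes, which carry the Müllerian code, reproducible regions at starts were common in paralog groups 9 and 10 and sparse beyond them. All 7 members of groups 9 and 10 had a region in their window, and 6 had one at the start. Of the 9 members of groups 11 to 13, 7 had a region in their window and 2, Hoxb13 and Hoxc13, had one at the start. Peak strength did not follow this division in the HOXC cluster. The best −log10 p at the start ran from 6.09 to 13.4 at Hoxc9, which had no start region. It ran from 2.96 to 13.1 at Hoxc11 and from 10.5 to 31.0 at Hoxc13. In the HOXA cluster the boundary fell between Hoxa10 and Hoxa11. The best peak at the Hoxa10 start reached a −log10 p of 46.0, 24.2 and 20.1 in the WT libraries and 41.3, 33.5 and 65.0 in the Pbrm1 cKO libraries. At the Hoxa11 start the values were 4.24, 7.52 and 4.48 in WT and 4.82, 3.11 and 5.91 in Pbrm1 cKO. At the Hoxa13 start, 5 libraries had a peak, with values between 3.56 and 5.53. Every library thus placed its Hoxa10 peak above its Hoxa11 and Hoxa13 peaks. At the Hoxa9 start, the gene of the oviduct segment, values ran from 4.36 in WT library 3 to 13.05 in Pbrm1 cKO library 3, and the groups overlapped. The region there, Hoxa9 region 1, was in the WT list alone but had a peak in all 6 libraries. Its ranks overlapped between groups too (difference −0.06, SE 0.15, adjusted p = 0.882, limma).

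The leading regions of the 5′ members are given in turn, from HOXA to HOXD. Hoxa10 region 2, 23 bp from a Hoxa10 start and leading for Hoxa11 too, ranked 12312, 25388.5 and 16229.5 in WT and 17748.5, 18991.5 and 7735 in Pbrm1 cKO. The groups overlapped, and the difference was 0.32 (SE 0.40, adjusted p = 0.749, limma). Hoxa7 region 2, which lies over a Hoxa7 start and led the Hoxa9 window, ranked 12334, 22289 and 9335.5 in WT and 13541, 10455.5 and 9871 in Pbrm1 cKO. Here too the groups overlapped (difference 0.29, SE 0.37, adjusted p = 0.757, limma).

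Hoxb13, a gene of the prostate and hindgut, had 1 region, over its start and in the WT list alone. It ranked 46275, 56462.5 and 59996.5 in WT and 64717, 65865.5 and 66371 in Pbrm1 cKO, the last of these with no peak at all. Every WT library ranked it above every Pbrm1 cKO library, at the low end of the list in all of them (difference −0.28, SE 0.12, adjusted p = 0.249, limma). Its tags overlapped, with 17, 12 and 6 in WT and 9 and 6 in Pbrm1 cKO libraries 1 and 2. Hoxb9, a gene of the thoracic skeleton and mammary gland, shared Hoxb8 region 1 as its leading region.

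In the HOXC cluster, Hoxc10 region 1 lay over the start of Hoxc10, a gene of the lumbar segments, and ranked 30174, 14726 and 22431 in WT and 12901.5, 20167 and 13509.5 in Pbrm1 cKO. The groups overlapped (difference 0.50, SE 0.36, adjusted p = 0.522, limma). Hoxc9 was led by Hoxc8 region 1, an intronic region with ranks of 13846, 38135 and 45103.5 in WT and 31433, 20557 and 22858 in Pbrm1 cKO. Its 3 WT values enclosed the 3 Pbrm1 cKO values. Hoxc12 region 1, between genes and 6130 bp from the Hoxc12 start, ranked from 30394.5 to 55791 over the 6 libraries, and its groups overlapped (difference 0.24, SE 0.27, adjusted p = 0.723, limma).

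In the HOXD cluster the leading scores declined from Hoxd9 and Hoxd10 (2.53) through Hoxd11 (1.75) and Hoxd12 (0.653) to Hoxd13 (0.492), the gene of the digits and genital tubercle. Hoxd10 region 1, over the Hoxd10 start and leading for Hoxd11, ranked 19136, 24027.5 and 21368 in WT and 19782, 19283 and 16092.5 in Pbrm1 cKO (difference 0.23, SE 0.32, adjusted p = 0.783, limma). Hoxd11 region 1 led Hoxd12, with ranks from 35844 to 58128, and Hoxd12 region 1 led Hoxd13, with ranks from 36188.5 to 61649. In each of the 3 regions the groups overlapped. The SDs of these scores ran from 0.117 to 0.315, so the values of Hoxd12 and Hoxd13 did not stand apart from each other, whereas both lay below that of Hoxd11 in every library.

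**Figure D3:**
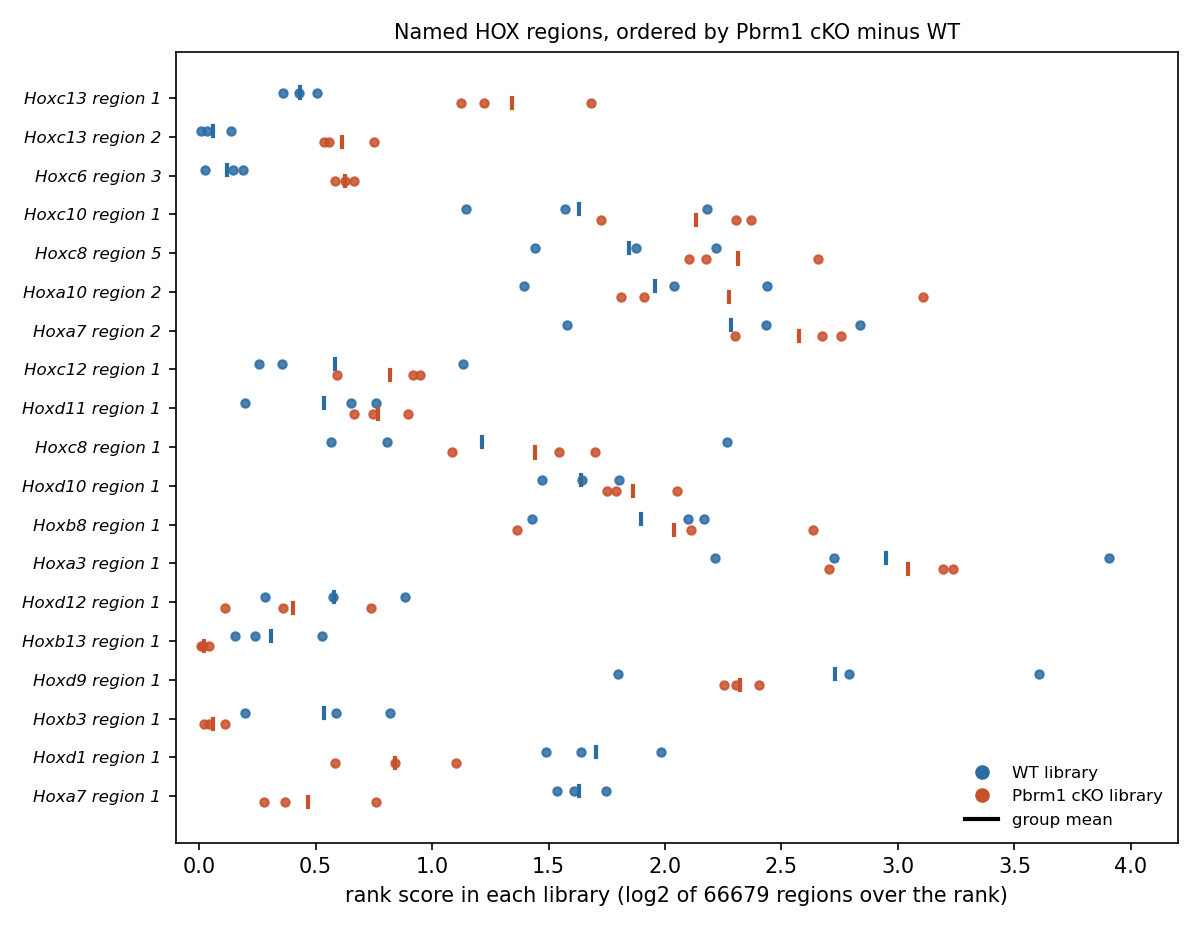
Rank score (log2, horizontal) of 19 named HOX regions in each WT (blue) and Pbrm1 cKO (orange) library, with a short bar at each group's mean, ordered by the difference between groups (rows). Hoxc13 region 1 stands at the top with the largest positive difference, 0.91, and Hoxa7 region 1 at the bottom with the largest negative one, −1.16.

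No HOX region passed an adjusted p of 0.05 between Pbrm1 cKO and WT, by limma with Benjamini-Hochberg adjustment over all 66679 regions. Over all regions 45 passed, or 0.0675% (0.039% higher and 0.0285% lower in Pbrm1 cKO). At an unadjusted p under 0.05 there were 9 (13.6%), against a background of 15.9%. Of these, 3 were higher and 6 lower in Pbrm1 cKO, 4.55% and 9.09% against 7.51% and 8.37%. Groups did not overlap in 13 (19.7%), against 21.5% of all regions. Of these, 4 were higher and 9 lower, 6.06% and 13.6% against 10.6% and 10.9%. Both totals were near the background. For a single region with 3 libraries a group, an exact permutation test cannot give a two-sided p below 0.1.

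The median difference over the 66 regions was −0.12, against 0.00055 over all regions, with 27 regions higher and 39 lower in Pbrm1 cKO. It was −0.04 without Pbrm1 cKO library 1. Groups 1 to 4 and 5 to 8 had medians of −0.13 and −0.13, and groups 9 to 13 a median of 0.17, with 14 of 23 regions higher. By cluster the medians were −0.07 in HOXA, −0.24 in HOXB, −0.11 in HOXC and −0.05 in HOXD. None of these medians was tested, and each group of members shares regions with its neighbors.

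**Figure D4:**
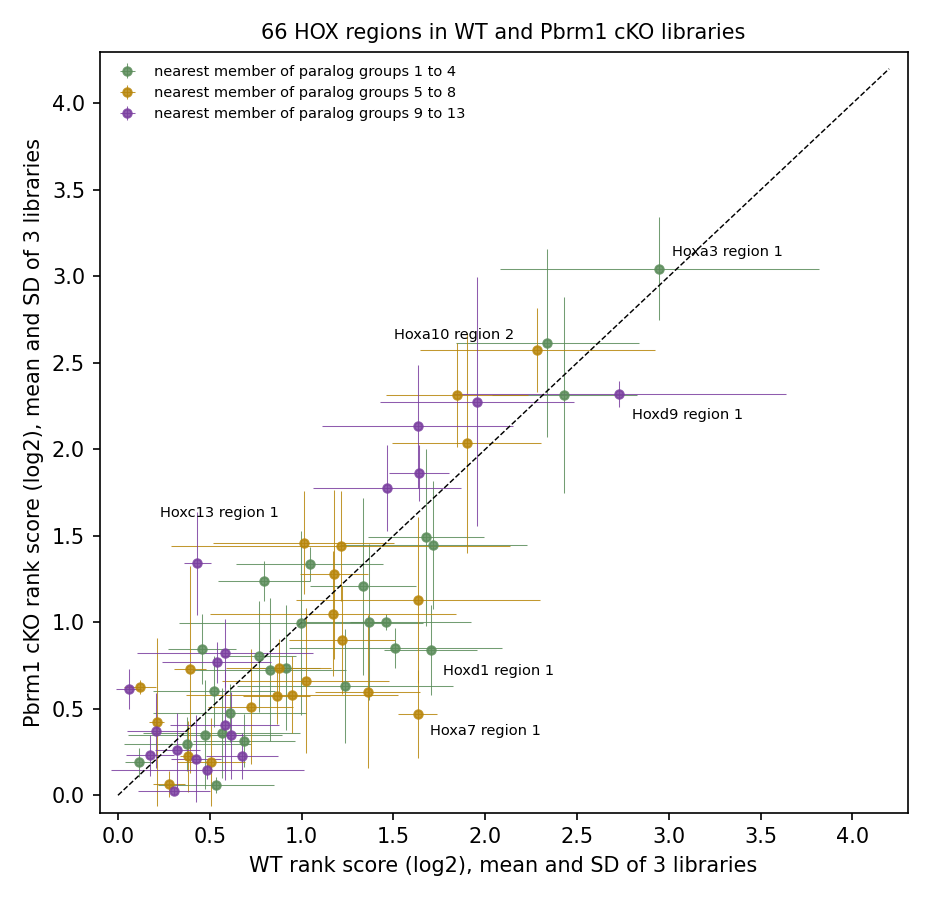
Mean rank score (log2) of the 66 HOX regions in WT (horizontal) and Pbrm1 cKO (vertical), with bars for the SD of 3 libraries, colored by the paralog group of the nearest member; the dashed line marks equal scores. Above the line lie 27 regions, Hoxc13 region 1 among them, and below it 39, with Hoxa7 region 1 and Hoxd1 region 1 among them.

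The 3 regions of smallest p among those lower in Pbrm1 cKO belonged to Hoxa7, Hoxb3 and Hoxd1. Hoxa7 region 1 covers an internal start of Hoxa7 and lies outside the body of Hoxa3, within the 5 kb around it. It ranked 22967, 21864 and 19846.5 in WT and 55001, 51603 and 39433 in Pbrm1 cKO. Its summit held 60, 51 and 33 tags in WT and 31, 30 and 38 in Pbrm1 cKO, so the tags overlapped where the ranks did not. The mean score was 1.63 ± 0.107 (SD, n = 3) in WT and 0.468 ± 0.255 in Pbrm1 cKO. The difference was −1.16 (SE 0.30, adjusted p = 0.0994, limma), the smallest adjusted p of all HOX regions. With normal scores of the ranks in place of the log2 scale, its adjusted p was 0.034 by limma. With regions ranked by the caller's fold enrichment in place of p, the difference was −0.48 (adjusted p = 0.211, limma).

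Hoxd1 region 1 lay over the start of Hoxd1, a gene of pain-sensing neurons at the 3′ end of its cluster. Its ranks were 16862.5, 21421 and 23766 in WT and 37265, 31039 and 44491.5 in Pbrm1 cKO, with no overlap (difference −0.86, SE 0.32, adjusted p = 0.200, limma). Hoxb3 region 1, in an exon of a gene of the hindbrain and pharynx, ranked 44333.5, 37811 and 58159 in WT and 65664, 64769 and 61803 in Pbrm1 cKO. It was in the WT list alone, and its groups did not overlap (difference −0.48, SE 0.16, adjusted p = 0.160, limma). By rank the WT libraries were the higher in all 3 regions. Tags overlapped at Hoxd1 region 1 too, with 39, 29 and 18 in WT and 23, 24 and 19 in Pbrm1 cKO. The same held at Hoxb3 region 1, with 23, 23 and 8 tags in WT and 9, 11 and 12 in Pbrm1 cKO.

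The 3 of smallest p among those higher in Pbrm1 cKO lay at Hoxc13, a gene of hair and nail, and Hoxc6, a gene of the thoracic level. Hoxc13 region 2, an intronic region 5156 bp from the start, ranked 60702.5, 66344.5 and 65147 in WT, the last 2 with no peak. In Pbrm1 cKO it ranked 39665, 45939.5 and 45331.5, with 25, 18 and 19 tags. The difference was 0.56 (SE 0.15, adjusted p = 0.106, limma), and 0.0337 was the adjusted p with normal scores. Hoxc13 region 1, over the start and leading for Hoxc13, ranked 51935.5, 46905 and 49577.5 in WT and 30609, 28577 and 20799.5 in Pbrm1 cKO (difference 0.91, SE 0.28, adjusted p = 0.140, limma). Both regions of Hoxc13 ranked higher in every Pbrm1 cKO library than in any WT library. WT libraries 1 and 3, however, had a stronger peak beside region 1 and within 1 kb of the start. In WT library 1 its −log10 p was 24.0 against 11.6 in the region itself, and in WT library 3 it was 10.5 against 6.11. Pbrm1 cKO library 2 had 23.4 at most within 1 kb of the start.

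Hoxc6 region 3, an intronic region, ranked 65574, 60267 and 58454 in WT and 44468, 42093 and 43240 in Pbrm1 cKO. Its groups did not overlap (difference 0.50, SE 0.15, adjusted p = 0.136, limma), and it was in the Pbrm1 cKO list alone. Ranked by fold enrichment the difference was 0.14 (adjusted p = 0.473, limma). With normal scores 3 of the 66 HOX regions passed an adjusted p of 0.05 by limma, against 2.33% of all regions. They were Hoxa7 region 1 and Hoxb13 region 1, lower (2 of 66, background 1.33%), and Hoxc13 region 2, higher (1 of 66, background 0.993%).

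The reproducible lists of the 2 genotypes shared most HOX regions. Of the 66 HOX regions, 44 (66.7%) were in both lists, against 69.2% of all merged regions. The WT list alone held 13 (19.7%, background 13.4%) and the Pbrm1 cKO list alone 9 (13.6%, background 17.4%). By paralog group, whose windows share regions, the WT list alone held 2 of 31 regions in groups 1 to 4, 8 of 30 in groups 5 to 8 and 8 of 23 in groups 9 to 13. The Pbrm1 cKO list alone held 5 of 31, 1 of 30 and 3 of 23 in turn. One list per genotype gives no replicate comparison, and membership did not mean absence in the other group. Of the 13, 11 had a peak in all 3 Pbrm1 cKO libraries, and of the 9, 8 had one in all 3 WT libraries. Regions of 1 list were weak, with median scores of 0.319 and 0.337, against 1.18 for the 44.

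Depth differed between libraries. HOX summits held a median of 32.5, 29 and 17 tags in the WT libraries and 30.5, 29 and 25 in the Pbrm1 cKO libraries. WT library 3 was the shallowest, yet its median HOX score, 0.905, was the highest of the 6, which ran from 0.662 to 0.905. Over the 66 regions, Spearman's correlation of ranks was 0.684 to 0.781 between WT libraries, 0.760 to 0.819 between Pbrm1 cKO libraries and 0.574 to 0.742 across genotypes. Over all 66679 regions it was 0.811 to 0.859, 0.865 to 0.873 and 0.767 to 0.814. These values are across regions of the same libraries, which are not independent, and the part of depth in them was not tested.

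In sequence, fewer HOX regions than merged regions at large held the AP-1 letters, and their median number of CpG was higher away from starts and lower at them. In windows of 300 bases at the region centre, the median GC content was 56.3% against 50.3%, and the median number of CpG was 15 against 5. Of the HOX windows 31 of 66 lay within 1 kb of a start of any protein-coding gene, against 25.8% of all windows. At starts the medians were 59.3% GC and 19 CpG, against 63.3% and 22, and away from starts 54.3% and 13, against 48% and 4. The loose AP-1 letters TGANTCA, with any base at the centre, were in 8 of 66 HOX windows (12.1%), against 33.5% of all windows. Away from protein-coding starts the letters were in 7 of 35 HOX windows and in 42.2% of all. The joint HOX and PBX letters TGATNNAT were in 12 of 66 (18.2%) against 12.6%, and in 6 of 31 windows at starts (19.4%) against 3.81%. The posterior HOX letters TTTATNG were in 15 of 66 (22.7%) against 9.98%, and AGGNGGC in 27 (40.9%) against 27.4%. CCAAT was in 30 of 66 (45.5%) against 31.1%, and at starts in 58.1% against 28.7%. GGGCGG was in 24 of 66 (36.4%) against 21.9%. It was less frequent at HOX starts than at starts in general, 38.7% against 56.6%, and more frequent away from starts, 34.3% against 9.88%.

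RefSeq promoters were matched for 22 members, 24 sequences in all, of 32851. In the 250 bases before the start, CCAAT was in 14 (58.3%) against 33.8% of all promoters, and the AP-1 letters in 1 (4.17%) against 6.75%. The median number of CpG was 12.5 against 6. These shares are descriptions of letters and were not tested.

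Genes that work with the HOX clusters were described by the regions at their starts, which 61.5% of all protein-coding genes had. Of the 9 TALE cofactors given here, 9 had a reproducible region at a start, with a median score of 2.22. Meis1, a cofactor of many HOX proteins, had a start score of 2.07, 1.89 and 1.73 in WT and 2.32, 2.47 and 2.03 in Pbrm1 cKO, with overlap, and was named after its values were seen. Of 14 activators and repressors of the clusters, 11 had a start region; Cdx1, Cdx2 and Cdx4, the caudal-type activators of the embryo's posterior end, did not. Ezh2, the Polycomb methyltransferase, had a start score of 3.88, 4.32 and 5.71 in WT and 6.05, 5.36 and 5.97 in Pbrm1 cKO, with overlap. Of 11 genes of retinoic acid, the signal that opens the clusters in order, 8 had a start region. Of these starts 1 was higher and 7 were lower in Pbrm1 cKO, with a median difference of −0.37. Among the cofactors 4 starts were higher and 5 lower (median −0.03), and among the activators and repressors 8 were higher and 3 lower (median 0.24). These directions were not tested as sets. In none of these 3 lists did a gene have a region past an adjusted p of 0.05 (limma), and the smallest values were 0.127, 0.164 and 0.0835. At an unadjusted p under 0.05, 6 cofactors, 2 activators or repressors and 5 retinoic acid genes had at least 1 region in their windows. These were 9 of 72 regions (12.5%), 2 of 34 (5.88%) and 9 of 57 (15.8%), none above the 15.9% of all regions. With normal scores a region in the Ezh2 window passed as higher (limma adjusted p = 0.0472). In the window of Rarb, a retinoic acid receptor gene, 3 regions passed as lower (limma adjusted p = 0.0164 to 0.0219). The Ezh2 region that passed was not the start region scored above, which had an adjusted p of 0.334 on the log2 scale (limma).

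Genes beside and inside the clusters differed widely. Of 18 flanking genes and noncoding RNAs within the clusters, 16 had a region and 7 a region at a start, again with no adjusted p under 0.05 (limma, smallest 0.0994; 3 genes at an unadjusted p under 0.05, with 4 of 47 regions or 8.51%). Skap2, an adaptor protein gene beyond the 3′ end of HOXA, had a start score of 6.72, whereas Evx1, a homeobox gene beyond its 5′ end, had no region. Hotairm1, a noncoding RNA at the 3′ end of HOXA, had a start score of 2.37. Hotair, the noncoding RNA of HOXC, and Hottip, that of the HOXA 5′ end, had 1 region each in their windows and none at the start. The Hottip region lay outside the windows of the members and was not a HOX region.

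The labelled cell type and the genotype could be checked only in part. Start regions were present at 7 of 8 smooth muscle markers, Acta2 and Myh11 among them, with summed scores of 9.52 to 10.7 in WT and 8.69 to 10.1 in Pbrm1 cKO. Of the epithelial markers 1 of 8 had a start region (Foxj1), of the immune markers 2 of 6, of the endothelial markers 4 of 5 and of the fibroblast and stromal markers 4 of 5. Summed scores were 3.58 to 4.13 and 3.20 to 4.62 for epithelium, 2.00 to 3.64 and 1.93 to 2.49 for immune cells, 3.85 to 5.81 and 3.40 to 5.30 for endothelium, and 4.10 to 5.22 and 4.26 to 5.24 for fibroblasts, in WT and Pbrm1 cKO in turn. Their part in the HOX values was not tested. The region at the Pbrm1 start, outside what peak lists can show of a deletion, ranked from 10525.5 to 22222 in all 6 libraries.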

How the data were processed

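Peak lists of 6 ATAC-seq libraries, 3 WT and 3 Pbrm1 cKO, were used, grouped by their labels. Per the study's methods and the labels, the authors trimmed reads with cutadapt, aligned them with Bowtie2 to GRCm38 in the ENCODE ATAC-seq pipeline and called peaks with MACS2. The authors deposited 1 relaxed list per library (p of 0.01, at most 300000 entries) and 1 conservative list per genotype at an IDR of 0.05, which offers no replicate comparison. The fold enrichment, a ratio, the −log10 p and q values and the score in these lists were deposited by the authors as MACS2 and IDR gave them. No read counts per region were used here. Which replicates entered the IDR step is not given in the sources used here.

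Peaks of both conservative lists that shared at least 1 bp were merged. Ranks were given within each library, and a region with no entry shared the lowest ranks. limma 3.58.1 (R 4.3.3) with a trended prior was fitted to log2 rank scores of all 66679 regions, with genotype as the sole term. It was tested on simulated data. Tags over a summit were solved from the deposited fold and p, and at least 99.995% of sampled entries came out whole within 0.001. Tags limit the precision of weak regions and cover counting error only. Genes came from GENCODE M21, sequences from GRCm38.p6 and RefSeq. All lists lay within that assembly's chromosome lengths. Alternatives were another rank scale, ranking by fold, a filter for an entry in all 6 libraries, a replicate block, left-out libraries, other windows, overlaps and start distances, and the stronger part of each conservative list.

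Members and lists were chosen with earlier results of these data known. Named regions were the leading regions of paralog groups 9 to 13, the highest of each cluster, and the 3 of smallest p in each direction. Of the 39 annotated HOX genes 1, and of the listed cofactors 1, is not reported here.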

Additional observations from a re-analysis of the deposited data

How the results depend on the processing

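Depth limited the weak regions: the lists hold ranks and caller values, WT library 3 had a median of 8 tags per listed summit against 13 to 15 in the other libraries, and weak regions rest on few tags. Normal scores in place of log2 rank scores gave 1 higher and 2 lower HOX regions, and 1 gene (Ezh2) higher and 2 (Rarb and Hoxaas3) lower among the gene lists. The region behind Hoxaas3 was Hoxa7 region 1 itself, so it is no second call. The cause was not tested. The range of adjusted p over the alternatives was 0.034 to 0.293 for Hoxa7 region 1, 0.0337 to 0.244 for Hoxc13 region 2 and 0.0483 to 0.474 for Hoxb13 region 1 (limma).

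The stronger part of each conservative list, which holds fewer peaks by construction, left 27 distinct HOX regions. Leaving out a library moved the median HOX difference between −0.13 and −0.04. Signs reversed, with 1 library left out, in 6 regions with small differences. The difference ran from −0.271 (without WT replicate 3) to 0.575 for Hoxa3 region 1, from −0.161 (without Pbrm1 cKO replicate 3) to 0.474 for Hoxb8 region 1, from −0.0946 (without WT replicate 3) to 0.757 for Hoxc8 region 1 and from −0.0592 (without WT replicate 2) to 0.569 for Hoxa7 region 2. It ran from −0.0956 (without Pbrm1 cKO replicate 3) to 0.561 for Hoxa10 region 2 and from −0.877 to 0.0282 (without WT replicate 3) for Hoxd9 region 1. Without a change of sign, it ran from 0.0755 (without WT replicate 1) to 0.514 (without WT replicate 3) for Hoxc12 region 1, from 0.257 (without WT replicate 1) to 0.775 (without WT replicate 2) for Hoxc10 region 1, from 0.266 (without WT replicate 1) to 0.653 for Hoxc8 region 5, from −0.343 to −0.0251 (without WT replicate 1) for Hoxd12 region 1, from 0.062 (without WT replicate 2) to 0.343 for Hoxd11 region 1, from 0.133 (without Pbrm1 cKO replicate 3) to 0.307 for Hoxd10 region 1 and from −0.361 to −0.174 (without WT replicate 1) for Hoxb13 region 1. Ranked by fold enrichment, differences also moved to 0.609 for Hoxb8 region 1, 1.03 for Hoxa10 region 2, 0.0169 for Hoxc8 region 5, 0.129 for Hoxc8 region 1, 0.093 for Hoxd10 region 1, 0.16 for Hoxa3 region 1 and 0.36 for Hoxc12 region 1. Of the recomputed values, 248 kept their direction and side of the threshold or, for counts, stayed near the main count. With the replicate number as a block the median HOX difference was −0.12 and 0 HOX regions passed (limma). Same-numbered libraries did not deviate together (correlations −0.0029, −0.05 and 0.0091), so the numbers were not taken as pairs.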
